A study of Chromochloris zofingiensis with 14 samples.

Results

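The genes described here are those of the green alga Chromochloris zofingiensis that lie on unplaced contigs, stretches of assembled sequence that were not assigned to a chromosome. They were chosen by sequence name alone, as every gene line of the deposited annotation that was not on chromosomes 1 to 19, the plastid genome, the mitochondrial genome or the separately named sequence chrRr. The rule gave 847 of 15369 genes, and the 14427 genes of the 19 chromosomes served for comparison. The series sampled RNA from cultures of strain SAG 211-14, 1 library in each of 14 conditions, all grown at 25 °C in a cycle of 16 h of light and 8 h of dark unless the condition set it otherwise. The conditions were light at 40, 100 or 400 μmol photons m−2 s−1, 48 h of dark, 1 h in medium lacking nitrogen, phosphorus, sulfur or iron, 2 h with 1 mM hydrogen peroxide, 5 μM rose bengal (for 0.5 h in the dark then 1 h in light, or for 1 h in the dark then 3 h in light), 20 mM glucose for 72 h, and 4 h of anaerobic culture in the light or in the dark. The deposited annotation held gene positions and no value of any condition, so expression and read depth were not analysed here.

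Sequence stays unplaced in an assembly when no map, read pair or overlap ties it to a chromosome, which is common for repeats and for near-identical copies. A gene model is a prediction of where coding sequence starts, stops and is interrupted by introns. The phase of an intron says whether it falls between codons (phase 0) or after the first or second base of a codon (phases 1 and 2). In many green algae, though not in all, most nuclear genes contain introns.

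Gene models on the contigs were shorter than those on the chromosomes and far more often had no intron. Of the 847 contig genes, 388 consisted of 1 coding segment, a share of 45.8% (95% interval 42.4 to 49.2). On the chromosomes 2317 of 14427 genes did, 16.1% (15.5 to 16.7), and single chromosomes ran from 14.4% on chromosome 1 to 20.2% on chromosome 18. Contig genes had 2.01 introns on average (SD 3.01), against 4.08 (SD 4.45) on the chromosomes, where single chromosomes ran from 3.37 to 4.44. Among genes with at least 1 intron the means were 3.71 on contigs (SD 3.22, n = 459) and 4.86 on chromosomes, and the lowest chromosome had 4.18. These intervals cover counting error only, and genes of 1 contig are not independent. Differences between contigs and chromosomes were not tested and are given as descriptions.

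Part of the difference moved with sequence length. When the chromosomes were divided into windows of 7087 bases, the median length of contigs with genes, and only genes lying wholly in 1 window were kept, the chromosomal mean dropped to 2.68 introns per gene and the chromosomal share without introns was 21.8%. The difference in mean introns was then -0.67 in place of -2.07, and the difference in the share without introns was 24.0 percentage points in place of 29.7. These windows did not match the contigs in length for most genes: 295 of the 847 contig genes lay on contigs over 40 kb. Genes crossing a window border were dropped, whereas models running to a contig edge were kept. Without 6 contigs in which over 50% of bases were coding, described further on, contig genes differed from chromosomal genes by -1.86 introns and 24.9 percentage points.

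**Figure D1:**
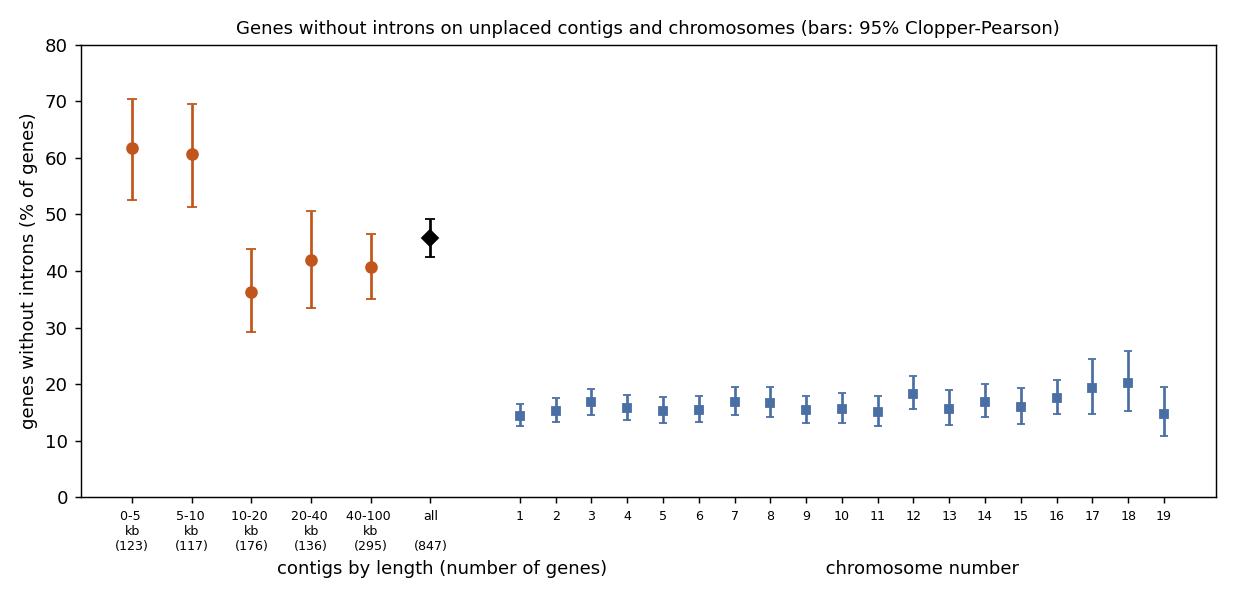
Share of genes without introns (%, vertical axis) for contigs in 5 length classes and for all contigs (left, number of genes in brackets) and for each of the 19 chromosomes (right), with 95% Clopper-Pearson intervals. All 5 contig classes lie above the highest chromosome, at 36.4% or more against 20.2%.

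The shortest contigs held the most genes without introns. The share was 61.8% on contigs of up to 5 kb, 60.7% from 5 to 10 kb, 36.4% from 10 to 20 kb, 41.9% from 20 to 40 kb and 40.7% from 40 to 100 kb. Mean introns per gene in the same order were 0.618, 0.966, 2.36, 2.71 and 2.47. The plot of shares by contig length shows that even the longest class stood above every chromosome. Coding length followed length class as well, with medians of 332, 525, 567, 906 and 852 bases.

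The 847 genes were spread over 181 of the 198 contigs. These contigs covered 2.41 Mb, which was 3.99% of the bases of the annotation and carried 5.51% of its genes, at 351 genes per Mb (328 to 376) against 250 (246 to 254) on the chromosomes. In chromosomal windows of median contig length, where genes crossing a border drop out, the difference was 186 genes per Mb in place of 101. Chromosomes ran from 150.3 genes per Mb on chromosome 17 to 275.6 on chromosome 16. The coding share of bases was 34.8% on the contigs and 36.8% on the chromosomes. Contigs were 1111 to 97886 bases long, with a median of 6303.5. The 17 contigs without a gene were 1143 to 15385 bases long.

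Most contigs held few genes. The median was 3 genes on a contig with genes, 47 contigs held a single gene, and 60 contigs with at least 5 genes held 592 genes (69.9%). The 5 contigs with most genes were chrUn83064 with 39, chrUn55705 with 30, chrUn97886 with 29, chrUn46257 with 27 and chrUn59698 with 20, together 17.1% of the contig genes. Contig names carry their length in bases, so the contig with most genes was not the longest one. Gene density was highest on the shortest contigs, at 578 genes per Mb up to 5 kb, and was 391, 350, 288 and 319 in the longer classes.

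Genes next to a contig end were shorter and had fewer introns than genes with neighbours on both sides. The 315 end genes included 54.0% without introns (48.3 to 59.6), against 41.0% (36.8 to 45.3) of the 532 inner genes. Their median coding length was 466 bases, against 757.5 for inner genes. Without the 6 densely coding contigs the end genes exceeded the inner genes by 19.9 percentage points in place of 13.0. Inner genes alone still differed from chromosomal genes with neighbours on both sides by 25.0 percentage points in the share without introns and by -1.85 introns per gene.

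Some end genes ran to the edge of their contig. Coding sequence ran to the first or last base in 48 genes on 48 contigs, 28 of them at the 5′ side of the gene and 20 at the 3′ side. These 48 models had a median of 314 coding bases, and 70.8% had no intron. The coding length of 40 contig genes was not a multiple of 3, all 40 were end genes and 32 of them reached the contig's end. The first segment of 17 models started inside a codon, and all 17 reached the end. On the chromosomes 0 of 14427 genes had a coding length that was not a multiple of 3, and none came closer than 11 bases to an end.

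Models under a certain size occurred on contigs only. The shortest chromosomal model had 201 coding bases, whereas 35 contig models were shorter, down to 62 bases. All 35 were the first or last gene on their contig, 32 had no intron, 29 were made by AUGUSTUS and 6 manually, and 16 started at the first base of their contig.

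Coding length differed less among genes without introns than among genes with introns. The median coding length over all genes was 627 bases (594 to 699) on contigs and 1062 (1047 to 1083) on chromosomes, with 927 on the lowest chromosome. The difference of -435 bases was -187.5 in chromosomal windows of median contig length. It was -272 between the mean of per-contig medians and the mean of chromosome medians. Among genes without introns the median was 453 bases (399 to 501) on contigs and 474 (456 to 495) on chromosomes. Among genes with introns it was 993 (852 to 1119) on contigs and 1203 on chromosomes. Models of at most 300 coding bases made up 27.1% of the contig genes without introns (105 of 388) and 18.7% of the chromosomal ones. Of the 105, 32 were below the 201 coding bases of the shortest chromosomal model, and all 32 lay first or last on their contig.

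Single contigs differed widely in intron content. Among the 60 contigs with at least 5 genes, mean introns per gene ran from 0 to 6.83 with a median of 2. Their SD was 1.59, against 1.74 over runs of the same number of neighbouring genes on chromosomes. These runs were laid end to end without overlap along each chromosome, and runs starting at other genes were not examined. The contigs averaged 2.29 and chromosomal blocks of 10 genes 4.08. The SDs were not scaled to these unequal means, so they do not show which spread was wider for its level. On 49 of the 60 contigs the mean was below the median of chromosomal runs of the same gene number, on 44 it was below the lowest chromosome mean, and on 4 it was above the highest.

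**Figure D2:**
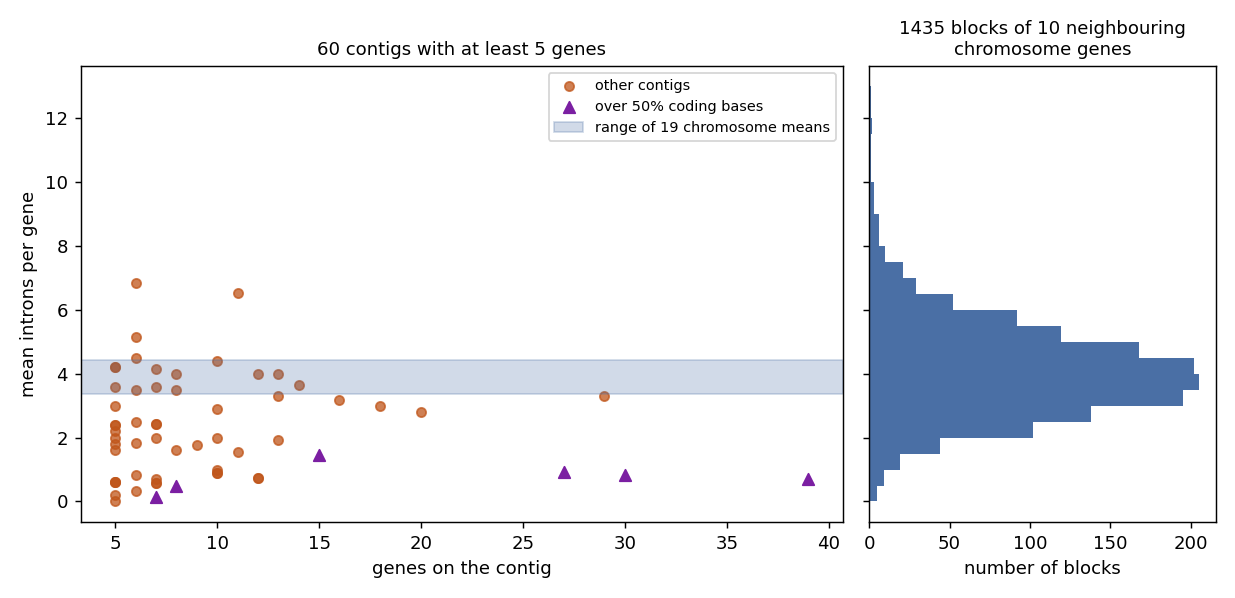
Mean introns per gene (vertical axis) for the 60 contigs with at least 5 genes, by number of genes (left panel; triangles, contigs with over 50% coding bases; band, range of the 19 chromosome means, 3.37 to 4.44), and for 1435 blocks of 10 neighbouring chromosomal genes (right panel). The 3 contigs with 27, 30 and 39 genes lie below 1 intron per gene.

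The contigs poorest in introns were chrUn06153, whose 5 genes had none, chrUn08895 with 0.143 introns per gene (7 genes) and chrUn06817 with 0.2 (5 genes). The richest were chrUn42925 with 6.83 (6 genes), chrUn49252 with 6.55 (11 genes) and chrUn27379 with 5.17 (6 genes). For 46 of the 60 contigs the lowest chromosomal run of the same gene number had no introns at all, so a contig of that size could not lie below it. Of the other 14 contigs, all with at least 12 genes, 3 lay below every one of the non-overlapping runs of their size. On chrUn83064 the 39 genes averaged 0.718 introns, against at least 2.15 in 361 runs of 39 chromosomal genes. On chrUn55705 the mean was 0.833, against at least 1.70 in 473 runs of 30 genes. On chrUn46257 it was 0.926, against at least 1.22 in 526 runs of 27 genes. No contig lay above all of the non-overlapping runs of its size. The longest contig, chrUn97886, carried 29 genes with 3.31 introns on average, and 4 of them had none.

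**Figure D3:**
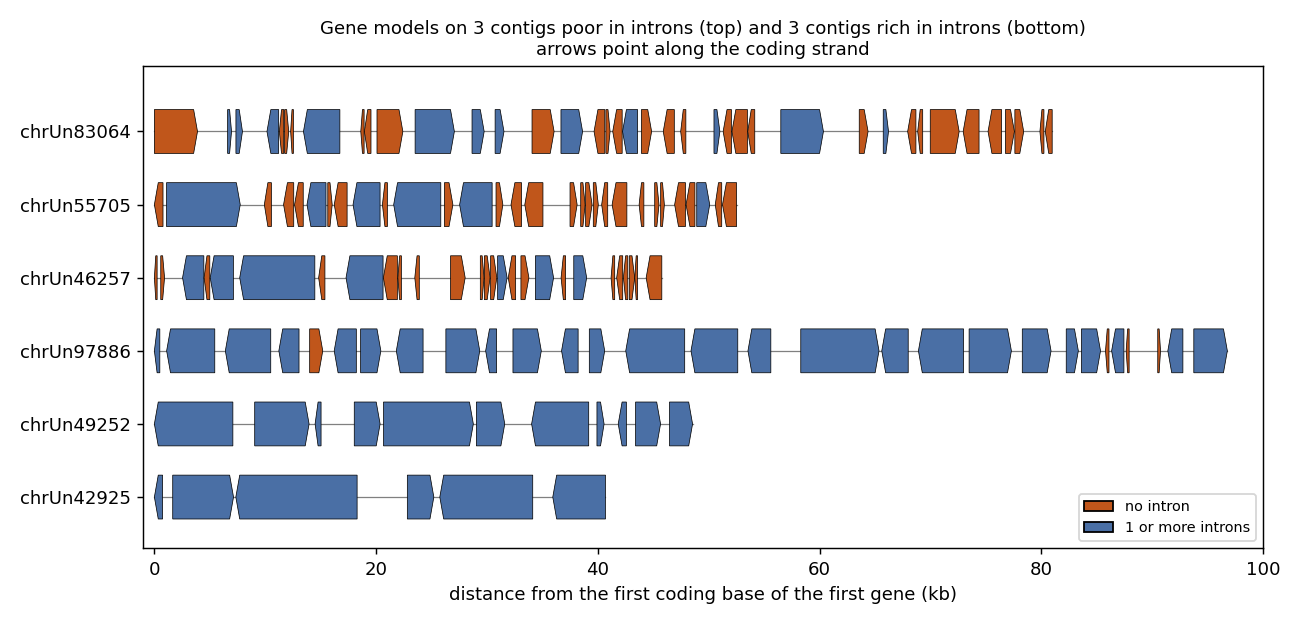
Gene models on 3 contigs poor in introns (chrUn83064, chrUn55705, chrUn46257, top) and 3 with more (chrUn97886, chrUn49252, chrUn42925, bottom), against distance from the first coding base of the first gene in kb; arrows point along the coding strand, and colour separates models with and without introns. The upper 3 hold 27 of 39, 24 of 30 and 20 of 27 genes without introns.

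The 3 contigs below all non-overlapping chromosomal runs of their size had high coding shares. Coding bases made up 51.3% of chrUn83064, 60.2% of chrUn55705 and 54.9% of chrUn46257, against 19.3 to 41.1% on whole chromosomes. Runs of neighbouring chromosomal genes reached such shares too. Counted from first to last gene, the coding share was 52.6% on chrUn83064, 63.8% on chrUn55705 and 55.5% on chrUn46257, against maxima of 53.7%, 63.1% and 69.1% over chromosomal runs of the same gene number. The other contigs with at least 5 genes and over 50% coding bases were chrUn22022 (50.6%), chrUn13692 (60.5%) and chrUn08895 (60.3%). This limit was chosen after the values had been seen. Intron bases and bases between genes lower the coding share, so the limit itself favours contigs with few or short introns and close neighbours. Of these 6 contigs only chrUn55705 had a coding share, from first to last gene, above all non-overlapping chromosomal runs of its size. The margin was small, 63.8% against 63.1%, and overlapping runs were not examined. The 6 contigs held 126 genes, of which 73.8% (65.2 to 81.2) had no intron, against 40.9% of the 721 genes on the other contigs. None of the 126 was named or made manually. Their median score was 0.75, and that of the other contig genes was 0.85.

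The few introns on these 6 contigs were short, a trait that the limit on coding share favours. The median of 105 introns was 110 bases (86 to 127), against 255.5 (250 to 262) for 1598 introns on the other contigs and 260 on the chromosomes. The 105 introns lay in 33 genes, and introns of 1 gene are not independent, so the intervals cover counting error only. Introns of at most 100 bases made up 48.6% of the 105 (38.7 to 58.5) and 5.38% (4.33 to 6.60) on the other contigs, against 4.36% on the chromosomes. On chrUn55705 19 of 25 introns were that short, on chrUn83064 18 of 28, on chrUn46257 12 of 25 and on chrUn22022 0 of 22. The gene with most introns there was UNPLg00227 (chrUn46257, 7875 to 14650), with 17 introns of median 89 bases and a score of 1. UNPLg00127 (chrUn55705, 2408 to 9060) had 13 introns of median 78 bases. Phase 0 introns were 63.8% on the 6 contigs and 51.3% on the others. The origin of these contigs was not tested, and their sequence was not analysed here.

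**Figure D4:**
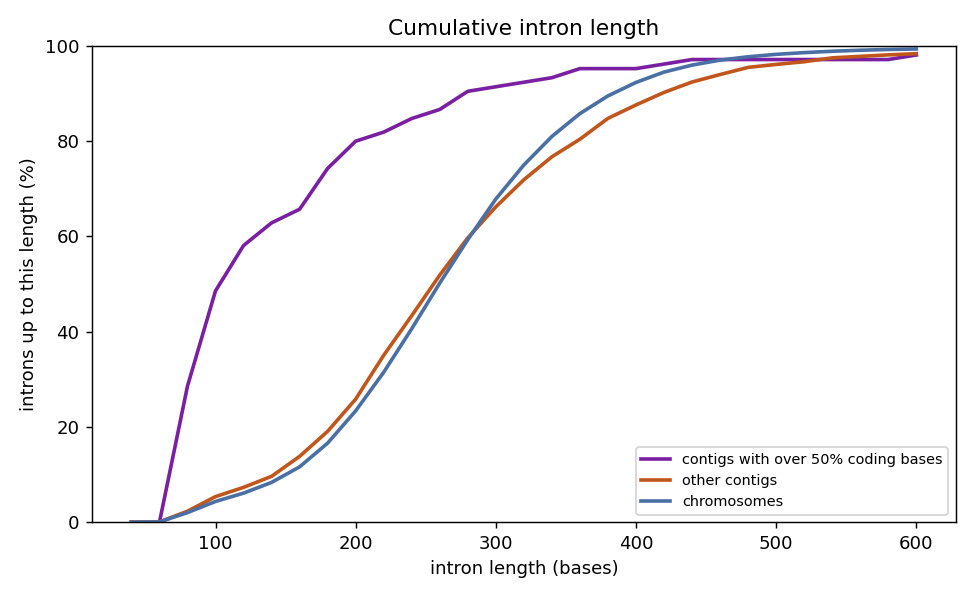
Cumulative share of introns (%, vertical axis) up to a given length (bases, horizontal axis) on the 6 contigs with over 50% coding bases, on the other contigs and on the chromosomes. At 100 bases the 3 lines stand at 48.6%, 5.38% and 4.36%.

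Over all contigs the middle of the intron length distribution was close to that of the chromosomes and both tails were heavier. The median of 1703 contig introns was 250 bases (245 to 256), against 260 (259 to 261) for 58871 chromosomal introns, and single chromosomes ran from 241 on chromosome 2 to 329.5 on chromosome 18. Between the mean of per-contig medians and the mean of chromosome medians the difference was -20.4 bases in place of -10. Contig introns of at most 100 bases were 137 (8.04%, 6.80 to 9.44), above the 6.24% of the highest chromosome. Of the 137, 51 lay on the 6 densely coding contigs, and the 5.38% on the other contigs was below that chromosome. Introns of 500 bases or more were 66 (3.88%, 3.01 to 4.90), against 1.79% on chromosomes, but chromosome 18 reached 8.33%. The 66 long introns lay in 56 genes on 44 contigs, with at most 6 on 1 contig. The longest were 1241 bases in UNPLg00437 (chrUn20692) and 1135 bases in UNPLg00185 (chrUn49252). First introns were shorter than later ones on contigs (235 and 253.5 bases) and on chromosomes (240 and 264).

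Intron phases had similar shares on both kinds of sequence. Phases 0, 1 and 2 made up 52.0%, 26.1% and 21.8% of contig introns, against 52.9%, 24.9% and 22.2% of chromosomal introns. The contig share of phase 0 had an interval of 49.6 to 54.4, which spans the chromosomal value, and the sign of the difference turned with the choice of contigs: it was 0.288 percentage points for inner genes and 0.355 for contigs with at least 5 genes, but -7.43 with every contig given the same weight. Phase 0 was less frequent among first introns, at 48.1% on contigs and 48.9% on chromosomes. Introns with a length that was a multiple of 3, which keep the reading frame if retained, made up 31.6% on contigs (29.4 to 33.9) and 33.1% on chromosomes. With every contig given the same weight that difference turned to 0.479 percentage points.

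Neighbouring contig genes shared a strand about as often as their strand counts alone give. Of 666 neighbouring pairs 349 lay on 1 strand, 52.4% (48.5 to 56.3), against 48.3% on the chromosomes. From the strand counts of each contig 52.0% would be met, and 50.03% from those of each chromosome. On the 30 contigs with 2 genes, and wherever all genes of a contig lay on 1 strand, this expectation equals the observed count by construction. The closeness of 52.4% and 52.0% was thus partly fixed in advance. In chromosomal windows of median contig length the share of pairs on 1 strand was 52.9%, so the difference turned to -0.456 percentage points. The plus strand held 52.9% of contig genes (49.5 to 56.3) and 50.5% of chromosomal genes.

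Strand runs, series of neighbouring genes on 1 strand, averaged 1.70 genes on contigs and 1.93 on chromosomes, where runs are not stopped by contig ends. The longest on contigs had 10 genes on the plus strand of chrUn55300 (UNPLg00159 to UNPLg00168, 19132 to 55103), 3 of them without introns. The next had 9 genes on the minus strand of chrUn46257 (2721 to 24072), 5 of them without introns, and 8 on the plus strand of chrUn22022 (4220 to 11763), 7 without introns. Runs of at least 5 genes held 101 contig genes (11.9%), against 17.6% of chromosomal genes. All genes lay on 1 strand on 31 of 134 contigs with at least 2 genes, but on only 4 of 60 with at least 5.

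Contig genes stood closer together than chromosomal genes, by an amount that depended on the comparison. The median distance from coding region to coding region was 747.5 bases (675 to 860) on contigs and 966 (952 to 982) on chromosomes, and single chromosomes ran from 902 to 1383. In chromosomal windows of 7087 bases no distance can exceed the window, whereas many contig genes lay on longer contigs. The window median was 692.5, and the contig median was 55 bases above it, which is not a comparison at equal sequence length. With every contig given the same weight, the mean of the per-contig medians was 1033 bases. The mean of the chromosome medians was 1001, so this measure put contig genes 32.1 bases farther apart. It changes the statistic as well as the weights. Without the 6 densely coding contigs the difference was -99.5 bases.

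Very close neighbours were frequent on contigs. Distances under 100 bases were found in 91 contig pairs (13.7%), against 3.52% of chromosomal pairs, and the shortest on a contig was 6 bases, found in 4 convergent pairs. They made up 16.3% of tandem, 16.2% of convergent and 5.52% of divergent contig pairs, against 5.198%, 2.63% and 1.26% of chromosomal pairs. The 6 densely coding contigs held 35 of the 91 among 120 pairs, and the others 56 among 546. Choosing the 6 by coding share favours close neighbours. Pairs of genes that both lacked introns stood closest, at a median of 336.5 bases (226 to 522) over 174 contig pairs, against 581.5 on chromosomes. Where both genes had introns the medians were 924 on contigs and 993 on chromosomes. The longest distances were 10579 bases on chrUn12140 (UNPLg00599 to UNPLg00600) and 8694 on chrUn41024 (UNPLg00289 to UNPLg00290).

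Some contigs repeated each other's gene order. Models were matched when strand and all coding segment lengths were equal, with each pair of contigs compared in the same and in opposite orientation. At least 3 matches in order were required, a rule set after the values had been seen. chrUn41021 and chrUn41024 differ in length by 3 bases and matched in 12 of 12 models, 11 of them at the same position, with equal distances in 10 of 11 steps. chrUn23437 and chrUn24751 matched in 7 of 10 models each, with equal distances in 5 of 6 steps and a difference of 52 bases in the other. That match included UNPLg00404 and UNPLg00373, each with 10 coding segments and 1689 coding bases. Shorter matches of 3 models, all of 1 segment, joined chrUn04901 with chrUn08895 and chrUn06153 with chrUn06669. Their distances differed by at most 5 bases and 1 base. chrUn22022 and chrUn46257 shared 3 models in opposite orientation, again all of 1 segment. Their distances differed by up to 8607 bases, so this match rests on equal single coding lengths alone. Whether matched models are copies in sequence was not tested. Reads of true copies may be split or set aside in counting, so values for such genes would be uncertain.

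**Figure D5:**
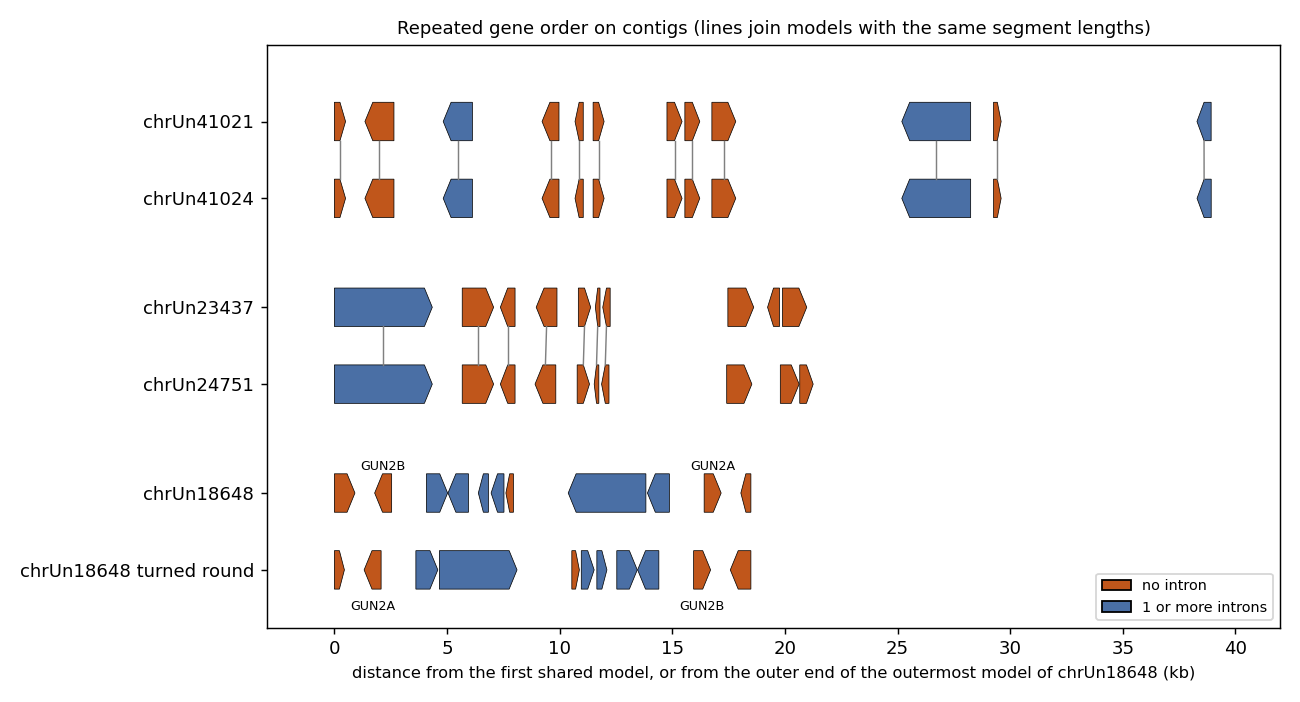
Gene models on chrUn41021 and chrUn41024, on chrUn23437 and chrUn24751, and on chrUn18648 in both directions, against distance in kb; arrows point along the coding strand and lines join models with equal coding segment lengths. The first pair matches in 12 models and the second in 7, and both ends of chrUn18648 carry a GUN2 gene.

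Models with introns that had the segment lengths of another model lay inside and outside these pairs. Contig and chromosomal models were not matched for number of segments, and equal lengths in 2 segments are a weaker match than in more. Of 459 contig models with at least 2 coding segments 17 (3.70%, 2.17 to 5.86) had the segment lengths of another model, against 1.23% on the chromosomes, and 9 of the 17 lay outside the repeated pairs. Of 311 contig models with at least 3 coding segments 7 (2.25%, 0.910 to 4.58) did, against 75 of 9964 (0.753%) on the chromosomes. All but 1 of the 7 were partners in the first and second pair. The other, UNPLg00346 on chrUn29608 (6179 to 8833), with 9 segments and 870 coding bases, had the segment lengths of Cz04g11170 on chromosome 4 (1153583 to 1156208).

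The contigs carried 10 genes named by the authors, 1.18% (0.568 to 2.16), against 3.41% of chromosomal genes and 2.11% on the lowest chromosome. They lay on 8 contigs, had coding lengths that were a multiple of 3, and averaged 4.7 introns, against 4.88 in named chromosomal genes. Their median coding length was 904.5 bases, against 1102.5. Of the 10, 3 had no intron.

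Pigment and photosynthesis genes made up 4 of the 10. GUN2A (UNPLg00465, chrUn18648, 16501 to 17256, plus strand) and GUN2B (UNPLg00457, 1874 to 2629, minus strand) are annotated as heme oxygenases, which open the heme ring on the way to bilins. Each had 1 segment of 756 coding bases, and no chromosomal gene had a GUN2 name. CHLI2 (UNPLg00024, chrUn97886, 83722 to 85444) is annotated as subunit I of magnesium chelatase, the enzyme that inserts magnesium into the porphyrin ring for chlorophyll. It had 813 coding bases in 4 segments, against 990 in 6 for CHLI1 on a chromosome. LHC20 (UNPLg00080, chrUn63584, 38456 to 39710), a light-harvesting protein put with photosystem II, had 762 coding bases in 3 segments, close to the 759 in 3 of the chromosomal LHC19.

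The contig with both GUN2 genes was partly mirrored. From its left end the distances after the first and second gene were 873 and 1542 bases, and from its right end they were also 873 and 1542. The third gene from the left, UNPLg00458, had segments of 150, 192 and 231 bases, and the third from the right, UNPLg00464, had 150, 192 and 264 on the opposite strand. The outermost genes differed, with 447 coding bases at the right and 915 at the left. The third distances were 67 bases from the right and 15 from the left.

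Lipid and carbon metabolism made up 5 more. KAS2 (UNPLg00257, chrUn43553, 34636 to 38055), a ketoacyl-ACP synthase of fatty acid elongation in plastids, had 1398 coding bases in 9 segments, against 1374 in 8 for KAS1. FAD3A (UNPLg00012, chrUn97886, 32453 to 35010), annotated as a desaturase, which adds a double bond to fatty acids, had 1374 in 5, against 1587 in 6 for FAD3B. PEPC1 (UNPLg00263, chrUn42925, 25743 to 34123), which carboxylates phosphoenolpyruvate, had 2913 in 16, against 3309 in 19 for PEPC2 and 1437 in 8 for PEPC3. UGP (UNPLg00641, chrUn09762, 4432 to 9106), which makes UDP-glucose, had 1449 in 10, against 2982 in 11 for UGP2. MDH3 (UNPLg00180, chrUn50212, 39828 to 42132), a malate dehydrogenase, was the only named contig gene made manually. It had 996 coding bases in 7 segments, against 1101, 828 and 1272 in 7 for MDH1, MDH2 and MDH5, and 1014 in 4 for MDH4. In each of these cases the contig gene differed in coding length from the chromosomal genes of the same family name.

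The last, TATA (UNPLg00323, chrUn32844, 11521 to 12090), belongs to the twin-arginine protein translocase. It had 570 coding bases in 1 segment, and the chromosomal TATB also had 570 coding bases, but in 5 segments.

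Models made manually were more frequent on contigs, with 18 of 847 (2.13%, 1.26 to 3.34) against 0.589% on chromosomes and 1.11% on the highest chromosome. They lay on 18 contigs, 14 were on the plus strand, 16 were the first gene of their contig, and 13 began or ended within 500 bases of an end. Among inner genes the difference turned to -0.215 percentage points, and with every contig given the same weight it was 3.91 in place of 1.54. Their median coding length was 421 bases (66 to 2730), against 1377 for manual models on chromosomes, and 8 of 18 had no intron, against 2 of 85. The shortest were UNPLg00367 (chrUn26682, 101 to 166) with 66 coding bases and UNPLg00354 (chrUn28555, 112 to 180) with 69.

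A manual model, UNPLg00401 (chrUn23693, 487 to 8599), had 20 coding segments and 2730 coding bases. Of the 20 segments 9 were exactly 102 bases long and 18 were a multiple of 3. UNPLg00189 also had 20 segments, with a score of 0.10. The longest contig gene was UNPLg00261 (chrUn42925, 7347 to 18285), with 9213 coding bases in 7 segments and a score of 0.40, followed in coding length by UNPLg00075 on chrUn63584 with 8073 bases in 5 segments and in span by UNPLg00360 on chrUn28555 with 9746 bases.

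The deposited score, whose meaning is not given in the sources used here, was not lower for the contig models. Its median was 0.82 (0.80 to 0.85, n = 829) on contigs and 0.78 on chromosomes, where single chromosomes ran from 0.74 to 0.85. Between the mean of per-contig medians and the mean of chromosome medians the difference was 0.00998 in place of 0.04. Scores under 0.5 made up 17.1% on contigs and 19.9% on chromosomes. Genes without introns had 0.885 on contigs and 0.81 on chromosomes, and genes with introns 0.76 on contigs and 0.77 on chromosomes.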

How the data were processed

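The authors deposited 1 gene annotation for the whole series, with start and end positions, strand, phase and, per the file headers and columns, a score for AUGUSTUS models. STAR 2.4.0j and Cuffdiff 2.2.1 are named in the submitters' processing notes; neither the settings nor a genome build could be read from the labels or headers. The annotation had 0 columns of per-sample values to pass over, so depth per library is unknown and no test between conditions was made. Python 3.11.15 with pandas 2.3.3, numpy 2.4.6 and scipy 1.17.1 was used, on scripts tested on simulated data. Introns are gaps between coding segments, and distances include untranslated sequence. Intervals are 95%: Clopper-Pearson for shares, exact Poisson for genes per Mb, order statistics for medians. Members, lists and alternatives were chosen with earlier results of these data known. Named are all contig genes with an author's name, manual models at the extremes, the 2 highest genes for span, coding length, segments and intron length, the longest distances, the 5 contigs with most genes, the 3 highest and 3 lowest contigs for introns among those with at least 5 genes, and the 3 longest strand runs. Other genes and contigs were named after their values were seen. The tried alternatives are a score of at least 0.5, manual models left out, inner genes, contigs with at least 5 genes, and leaving out the contig with most genes. Others are equal weight for each contig, chromosomal windows, chromosomes 17 and 18 left out, and coding lengths not a multiple of 3 left out. Equal weight means the mean of the values of single contigs, set against the mean of the values of single chromosomes. Where the result is a median, this is a mean of medians.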

Additional observations from a re-analysis of the deposited data

How the results depend on the processing

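Values are contig minus chromosome unless stated. Of 139 alternative values, 114 differences moved by no more than the contig value lay from its own 95% bounds, 18 moved farther and 7 changed sign; the causes were not tested. In chromosomal windows of median contig length, genes per Mb differed by 186 in place of 101, the share without introns by 24.0 points and mean introns by -0.67. Coding length differed by -187.5 bases, same-strand pairs by -0.456 points and distance by 55 bases. Many contig genes lay on contigs longer than these windows. For inner genes the differences were 25.0 points, -1.85 introns, -307.5 bases, 0.288 points for phase 0 and -0.215 points for manual models. For contigs with at least 5 genes they were -1.86 introns, -322.5 bases and 0.355 points for phase 0. With each contig weighted equally, coding length differed by -272 bases, intron length by -20.4, phase 0 by -7.43 points, introns of a multiple of 3 by 0.479, distance by 32.1 bases, manual models by 3.91 points and score by 0.00998. For coding length, intron length, distance and score this setting compares means of medians, so the statistic changed along with the weights. Without the 6 densely coding contigs, an alternative chosen after seeing the data, the share without introns differed by 24.9 points, mean introns by -1.86, distance by -99.5 bases, and end genes exceeded inner genes by 19.9 points in place of 13.0. Leaving out the second contig of each repeated pair, also chosen after seeing the data, moved none of the 14 results. The 5 contigs left out included the densely coding chrUn46257 with 27 genes, whose match rested on equal single coding lengths alone. Manual models carry no score, so a score limit gave no value for them. No paired analysis was possible because each condition had 1 library and the annotation holds no sample values.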
